A study of Mus musculus with 15 samples.

Results

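The gene encoding the transcription factor p53, Trp53, and 9 of its target genes and regulators (Cdkn1a, Mdm2, Mdm4, Ccng1, Zmat3, Phlda3, Trp53inp1, Sesn2 and Eda2r) were examined in leukaemic and normal mouse bone marrow. They were taken by gene name, 10 of the 38315 genes in the table of normalized counts, and each name was found once. Gene expression had been measured by bulk RNA sequencing of total RNA from 15 bone marrow samples. Acute myeloid leukaemia (AML) marrow came from 7 mice of the genotype NUP98-NSD1/FLT3-ITD, which combines a fusion of a nucleoporin with a histone methyltransferase and an internal tandem duplication in the receptor tyrosine kinase FLT3. Wild-type mice gave the controls, 4 samples of whole marrow and 4 of lineage-negative marrow, that is, marrow depleted of cells with surface markers of mature blood lineages. No treatment is named for any group, and all genotypes were kept in the facility from birth; age, strain and the promoters of the transgenes are not given in the sources used here. The titles number the samples within each group and say no more of the mice, so the p-values below measure the spread between these samples.

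The p53 protein is held at a low level by Mdm2, a ubiquitin ligase, and by its relative Mdm4, which binds the activation domain of p53. After DNA damage, nutrient stress or oncogene signals it is released, binds DNA as a tetramer and raises the transcription of genes that stop the cell cycle, start apoptosis, repair DNA or adjust metabolism, and of Mdm2 itself, which closes a feedback loop. In haematopoietic stem cells p53 is known for its part in quiescence and in the response to radiation. Much of its control acts on the protein, so the transcript level of Trp53 is not a measure of p53 activity.

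The canonical p53 site is a pair of half-site decamers, each with 3 purines, a C, 2 bases that are A or T, a G and 3 pyrimidines, a pattern that is its own reverse complement. Promoter windows from 250 bases before to 50 after an annotated start (RefSeq, GRCm38.p6) were present for 8 of the 10 genes, and 4 of these held a decamer, against 9.55% of 27025 genes with a window. The 4 are shown because they include p53's own gene, both canonical feedback and arrest targets, and the 2 genes with a pair of half-sites. Capitals mark the decamers and, in Ccng1, also the half-site with 1 mismatch, and sequences run 5′ to 3′ on the strand of the gene.
Cdkn1a, upstream start (chr17:29090876-29090967, plus strand): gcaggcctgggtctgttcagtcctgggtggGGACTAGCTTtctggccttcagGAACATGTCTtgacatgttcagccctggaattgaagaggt
Ccng1 (chr11:40755432-40755511, minus strand): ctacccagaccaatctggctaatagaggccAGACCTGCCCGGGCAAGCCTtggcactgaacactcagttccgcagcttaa
Mdm2 (chr10:117710905-117710974, minus strand): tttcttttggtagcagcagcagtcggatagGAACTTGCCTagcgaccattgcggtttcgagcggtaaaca
Trp53 (chr11:69580254-69580323, plus strand): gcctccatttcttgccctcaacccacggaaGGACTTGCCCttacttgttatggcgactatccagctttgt
The first full decamer began 73 bases before the start for Cdkn1a, 185 for Ccng1 (with its mismatched partner at 195), 186 for Mdm2 and 75 for Trp53. In Cdkn1a, 2 full decamers stood 12 bases apart, and in Ccng1 a full decamer adjoined one with 1 mismatch. The second Cdkn1a decamer also adjoined a half-site with 1 mismatch, tgacatgttc. That half-site is in lower case because only the pair with the fewest mismatches was marked. A pair with a spacer of up to 13 bases and at most 1 mismatch occurred in 1.24% of genes, and a pair without mismatch in 0.0740%, or 20 genes. The second Cdkn1a window and the windows of Mdm4, Phlda3, Sesn2 and Eda2r held no decamer. A match is a description of the letters, not evidence of binding.

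The libraries differed in ways that touch the comparisons with whole marrow. Estimated depth was 20.3 to 35.1 M reads (M, mega) for AML, 11.4 to 17.2 for whole and 20.3 to 28.1 for lineage-negative marrow. Whole marrow listed 7.12% to 15.7% of all genes at 0, where AML listed 23.6% to 41.4% and lineage-negative marrow 35.7% to 41.0%. At 29.1% and 23.6%, AML replicates 5 and 6 stood apart from their group. The mean of 1452 olfactory and vomeronasal receptor genes, which marrow should not express, was 7.14 to 13.5 normalized counts per whole marrow library, where AML had 0.465 to 3.81 and lineage-negative marrow 0.384 to 0.499. Whole marrow replicate 1 was low for most genes named here and had the highest receptor mean. The median gene was higher by 0.67 (log2) in AML and by 0.59 in lineage-negative marrow than in whole marrow, but by only 0.02 in AML than in lineage-negative marrow. Differences of the 10 genes from whole marrow are therefore also given after scaling by the trimmed mean of M values (TMM), which brings the bulk of the genes close to 0. For genes of the other lists, a TMM value is given where it changed a call against whole marrow, and for some others.

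The marker genes of the labelled tissues were present. Erythroid markers (10 of 10 detected) made up 7.53% to 11.1% of the normalized counts of whole marrow, where AML had 0.0111% to 0.122% and lineage-negative marrow 0.130% to 0.278%, and 1 of the 10 was at 0 in at least 1 AML library. Mature neutrophil markers (8 of 8) made up 3.73% to 5.81% in whole marrow, beside 1.30% to 4.59% for AML and 0.00471% to 0.0776% for lineage-negative marrow. Stem and progenitor markers (6 of 6) were at 0.0673% to 0.104% in lineage-negative marrow, 0.0108% to 0.0116% in whole marrow and 0.00629% to 0.0217% in AML, and those of B cells (7 of 7) were at 0.0281% to 0.0431% in whole marrow, above AML (0.00160% to 0.0191%) and lineage-negative marrow (0.00173% to 0.00289%). Monocyte and macrophage markers (6 of 6) reached 0.243% to 0.476% in AML, above the 0.144% to 0.184% of whole marrow and the 0.102% to 0.136% of lineage-negative marrow. In bulk samples, fewer cells of a type and less RNA per cell cannot be told apart, and the part of cell composition in the differences below was not tested.

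Against whole marrow, AML marrow had more Cdkn1a, the p21 inhibitor of cyclin-dependent kinases, and more Trp53. A gene was called at a limma adjusted p under 0.05 (Benjamini-Hochberg over 18941 genes) and a log2 difference of at least 1 in size. Of the 10 genes, 2 were called higher and 0 lower, where 27.3% of all genes tested were called higher and 11.3% lower. By limma, 0 of the 10 were lower at an unadjusted p under 0.05, and limma-voom on estimated reads also called 0 lower. The median log2 difference of the 10 was 0.73, close to the 0.67 of all genes. After TMM scaling Cdkn1a was the one gene called higher and Eda2r the one called lower, beside 4.74% and 16% of all genes. Without AML replicates 5 and 6 the counts on the deposited scale were 2 higher and 1 lower, and without whole marrow replicate 1 they were 1 and 0.

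Against lineage-negative marrow, AML marrow had more Trp53inp1 and Sesn2, stress-response targets, and less Trp53 and Eda2r. The counts were 2 higher and 2 lower of 10, beside 17.7% and 12.5% of all genes tested, and the median log2 difference was 0.11. Eda2r passed the filter on low values through 3 of 4 lineage-negative, 1 of 7 AML and 1 of 4 whole marrows. Its place among the lower genes is therefore no finding about the 10 genes. Without AML replicates 5 and 6, Phlda3 joined the lower genes and the counts were 2 and 3; no count changed with TMM scaling.

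Between the control groups, lineage-negative marrow had more Trp53, Cdkn1a and Phlda3 and less Trp53inp1 than whole marrow, with 3 called higher and 1 lower beside 33.1% and 17.2% of all genes. With TMM scaling 1 gene, Trp53, was called higher and 2, Trp53inp1 and Sesn2, were called lower, beside 11.1% and 24.7%. Each pair of comparisons shares a group of samples, so their values are given side by side and are not independent.

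**Figure D1:**
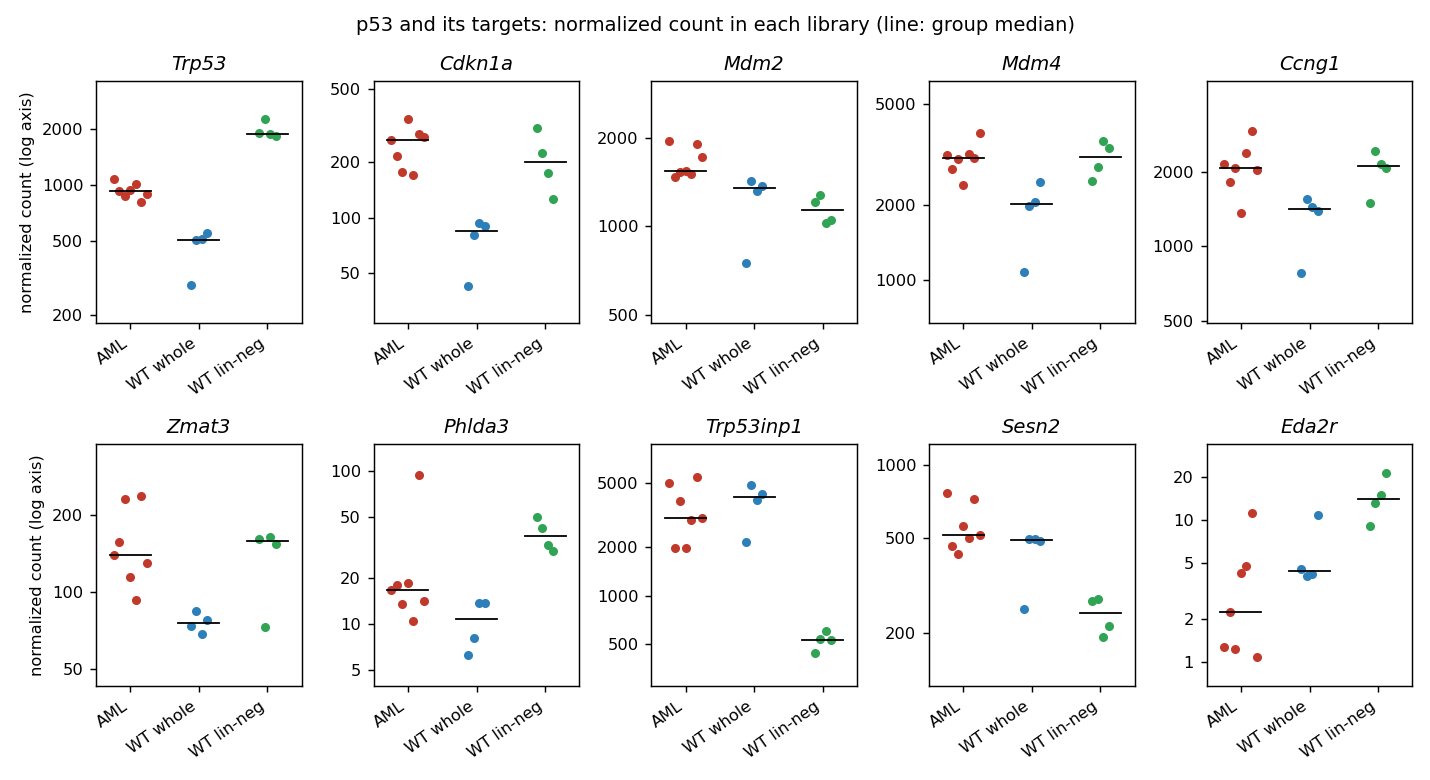
Normalized count (log axis) of p53 and its 9 targets in each of 15 libraries, with 1 point per library and a line at the group median for 7 AML, 4 wild-type whole and 4 wild-type lineage-negative marrows. The Trp53 groups do not overlap, Trp53inp1 is lowest in all 4 lineage-negative marrows, and AML replicate 6 stands above the other AML marrows for Phlda3 at 93.8.

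Trp53 (ENSMUSG00000059552, listed on chromosome 11 from 69471185 to 69482699, plus strand) was lowest in whole marrow and highest in lineage-negative marrow. The AML libraries ranged from 811 to 1075 normalized counts with a median of 925. Whole marrow replicates 1 to 4 had 287, 504, 509 and 554, and lineage-negative replicates 1 to 4 had 1906, 2276, 1876 and 1844. The 3 groups were fully separated, with every AML marrow between the whole and the lineage-negative marrows. The means were 932 ± 87.8 (SD, n = 7), 464 ± 120 (SD, n = 4) and 1975 ± 202 (SD, n = 4). AML marrow exceeded whole marrow by 1.04 ± 0.18 (log2 ± SE; limma adjusted p = 6.49e-05) and lay below lineage-negative marrow by a log2 difference of -1.08 ± 0.18 (limma adjusted p = 4.45e-05). The first difference came close to the threshold and lost its call without whole marrow replicate 1 (0.83, limma adjusted p = 4.02e-05) and with TMM scaling (0.35, limma adjusted p = 0.00588); relative to the median gene it was 0.37. Lineage-negative marrow exceeded whole marrow by 2.13 ± 0.20 (limma adjusted p = 9.81e-08), and by 1.43 with TMM scaling.

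Cdkn1a (ENSMUSG00000023067, chromosome 17 from 29309950 to 29319701, plus strand) encodes p21, which halts the cell cycle by blocking cyclin-dependent kinases and is the classical readout of p53 activity. AML libraries ranged from 171 to 346 normalized counts with a median of 265. Whole marrow had 42.8, 80.6, 94.0 and 89.8 in replicates 1 to 4, and lineage-negative marrow 306, 226, 176 and 127. Every AML and every lineage-negative marrow lay above every whole marrow, while AML and lineage-negative marrows overlapped. The group means were 248 ± 63.6 (SD, n = 7) in AML, 76.8 ± 23.3 (SD, n = 4) in whole and 209 ± 76.4 (SD, n = 4) in lineage-negative marrow. AML marrow rose over whole marrow by 1.70 ± 0.28 (log2 ± SE; limma adjusted p = 5.15e-05), a 3.23-fold ratio of means. With TMM scaling the difference was 1.01 ± 0.24 (limma adjusted p = 0.00328), still a call but barely past the fold threshold. Against lineage-negative marrow the log2 difference was 0.28 ± 0.28 (limma adjusted p = 0.435). Lineage-negative marrow exceeded whole marrow by 1.42 ± 0.31 (limma adjusted p = 0.000616), which fell to 0.73 and was not called with TMM scaling (limma adjusted p = 0.0301).

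The ratio of Cdkn1a to Trp53 within a library depends on the scaling of the library only through the pseudocount of 1. It is given as a log2 ratio of normalized counts plus 1, uncorrected for gene length, and compared only between libraries. AML libraries ranged from -2.56 to -1.44 with a mean of -1.94 ± 0.42 (SD), whole marrow from -2.72 to -2.43 (-2.60 ± 0.12) and lineage-negative marrow from -3.85 to -2.63 (-3.30 ± 0.50). All 7 AML libraries lay above all 4 lineage-negative ones, and AML replicate 5 lay within the range of whole marrow. The ratio in AML was higher than in lineage-negative marrow by 1.36 (two-sided exact permutation test over 330 arrangements, p = 0.00303, the smallest this design allows; 0.0182 after adjustment over 6 ratio tests) and higher than in whole marrow by 0.65 (exact p = 0.0182, adjusted 0.0364). The lineage-negative mean was lower than the whole marrow mean by a difference of -0.71 (exact p = 0.0571, adjusted 0.0686). The difference of 1.36 from lineage-negative marrow holds a Cdkn1a difference of 0.28, which was not called, and a Trp53 difference of -1.08. Most of it thus came from Trp53. The ratio tests sit near the limit set by the number of libraries. The difference from whole marrow missed the threshold without AML replicate 2 (0.68) or whole marrow replicate 1 (0.61), 2 (0.64), 3 (0.71) or 4 (0.65), the difference from lineage-negative marrow missed it without lineage-negative replicate 3 (1.33) or 4 (1.18), and the difference between the controls passed it without lineage-negative replicate 1 (-0.93) and with a pseudocount of 5 (-0.75).

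**Figure D2:**
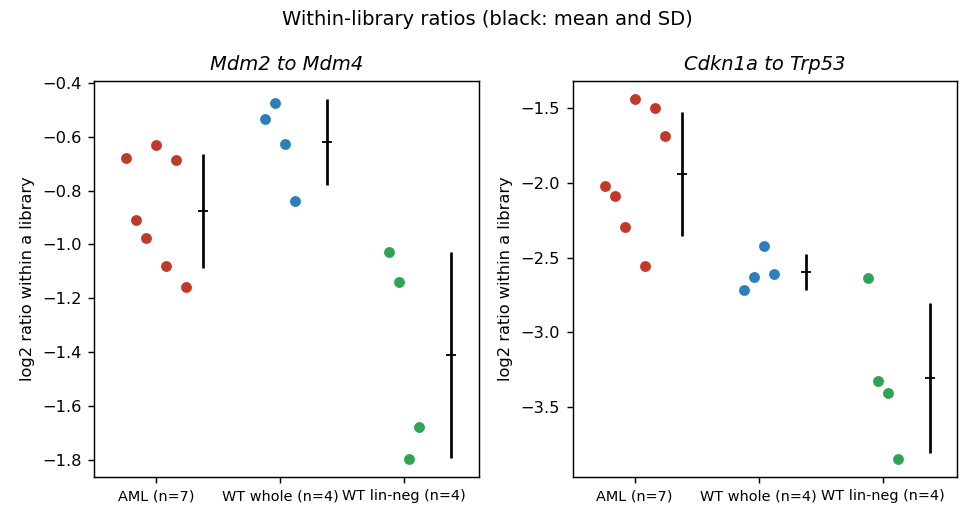
Log2 ratio of Mdm2 to Mdm4 and of Cdkn1a to Trp53 within each library, with 1 point per library and black bars for the group mean and SD (7 AML, 4 whole, 4 lineage-negative marrows). The Cdkn1a to Trp53 ratio is highest in AML (mean -1.94) and lowest in lineage-negative marrow (mean -3.30); the Mdm2 to Mdm4 ratio is lowest in lineage-negative marrow (mean -1.41).

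Mdm2 (ENSMUSG00000020184, chromosome 10 from 117524780 to 117546663, minus strand), the ubiquitin ligase and feedback target, was not called in any comparison. It ranged from 1473 to 1958 normalized counts in AML, with a median of 1550. Whole marrow replicates 1 to 4 had 748, 1423, 1325 and 1374, and lineage-negative replicates 1 to 4 had 1215, 1276, 1028 and 1052. All 7 AML marrows lay above all 8 control marrows, and the control groups overlapped. AML marrow, at a mean of 1665 ± 199 (SD, n = 7), differed from lineage-negative marrow (1143 ± 122, n = 4) by 0.54 ± 0.18 (log2 ± SE; limma adjusted p = 0.0187), short of the fold threshold. From whole marrow (1217 ± 316, n = 4, or 1374 ± 48.9 without replicate 1) it differed by 0.49 ± 0.18 (limma adjusted p = 0.0234), a sign that turned to -0.21 with TMM scaling (limma adjusted p = 0.139). The controls differed by -0.05 ± 0.20 (limma adjusted p = 0.835) and by -0.75 with TMM scaling (limma adjusted p = 5.26e-05).

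Mdm4 (ENSMUSG00000054387, chromosome 1 from 132887222 to 132958299, minus strand), the other inhibitor of p53, was lowest in whole marrow. In AML it ranged from 2399 to 3860 with a median of 3064. Whole marrow had 1083, 1979, 2049 and 2458 in replicates 1 to 4, and lineage-negative marrow 2479, 2814, 3571 and 3364. Lineage-negative marrows lay within the AML range, and 6 of 7 AML and all 4 lineage-negative marrows lay above all whole marrows. AML differed from lineage-negative marrow by 0.00 ± 0.20 (log2 ± SE; limma adjusted p = 0.988) and from whole marrow by 0.74 ± 0.20 (limma adjusted p = 0.00365), which was not a call and was 0.05 with TMM scaling. The controls differed by 0.74, and by 0.04 with TMM scaling, also without a call.

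The log2 ratio of Mdm2 to Mdm4 within a library was -0.87 ± 0.21 (SD) in AML, -0.62 ± 0.16 in whole marrow and -1.41 ± 0.38 in lineage-negative marrow. Lineage-negative replicates 3 and 4, at -1.80 and -1.68, were lowest, and replicates 1 and 2, at -1.03 and -1.14, overlapped with AML. AML exceeded lineage-negative marrow by 0.54 (two-sided exact permutation test, p = 0.0182, adjusted 0.0364) and differed from whole marrow by -0.25 (exact p = 0.0758, adjusted 0.0758). Lineage-negative marrow was below whole marrow by a difference of -0.79 (exact p = 0.0286, the smallest that 70 arrangements allow; adjusted 0.0429). The first missed the threshold without AML replicate 2 (0.54) or lineage-negative replicate 3 (0.41) or 4 (0.45). The last missed it without whole marrow replicate 1 (-0.76), 2 (-0.74), 3 (-0.79) or 4 (-0.86), each with an exact p of 0.0571, and without lineage-negative replicate 3 (-0.66) or 4 (-0.70).

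Ccng1 (ENSMUSG00000020326, chromosome 11 from 40639379 to 40646138, minus strand) encodes cyclin G1, which recruits a phosphatase to Mdm2. Its window above holds one of the half-site pairs. The AML marrows had 1365 to 2921 normalized counts with a median of 2071, whole marrow had 783, 1553, 1445 and 1388 in replicates 1 to 4, and lineage-negative marrow 1499, 2437, 2155 and 2070. The lineage-negative marrows lay within the range of AML, and 6 of 7 AML marrows were above whole marrow. No comparison was called: the log2 difference was 0.72 ± 0.22 from whole marrow (limma adjusted p = 0.00732; 0.03 with TMM scaling) and 0.04 ± 0.22 from lineage-negative marrow (limma adjusted p = 0.903). The controls differed by 0.68, and by -0.01 with TMM scaling.

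Zmat3 (ENSMUSG00000027663, chromosome 3 from 32388941 to 32420163, minus strand), an RNA-binding zinc finger protein that acts in splicing, was variable among AML marrows. They ranged from 93.4 to 237 with a median of 140, whole marrow had 73.6, 84.4, 68.9 and 77.8, and lineage-negative marrow had 161, 73.1, 164 and 155 in replicates 1 to 4. All 7 AML marrows lay above all whole marrows, and lineage-negative replicate 2 lay among the latter. AML differed from whole marrow by 0.97 ± 0.28 (log2 ± SE; limma adjusted p = 0.00625), just short of the fold threshold. Leaving out AML replicate 4 (1.03), AML replicate 5 (1.08) or whole marrow replicate 2 (1.02) turned it into a call, and TMM scaling gave 0.28 (limma adjusted p = 0.499). The receptor genes, scaled to the exonic length of Zmat3, would give 21.7 to 41.1 normalized counts in whole marrow; subtracting this level raised the difference to 1.65 (limma adjusted p = 0.000184). Lineage-negative and whole marrow differed by 0.78 (limma adjusted p = 0.0393), a call without lineage-negative replicate 2 (1.06), and by 0.09 with TMM scaling.

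Phlda3 (ENSMUSG00000041801, chromosome 1 from 135693857 to 135696874, plus strand), a pleckstrin homology protein that competes with the kinase Akt for membrane lipids, was low. AML replicate 6 had 93.8 normalized counts and the other 6 AML marrows 10.4 to 18.6; whole marrow had 6.28, 8.04, 13.6 and 13.6, and lineage-negative marrow 49.9, 42.3, 32.6 and 30.02 in replicates 1 to 4. Leaving out AML replicate 6 lowered the AML mean from 26.4 ± 29.8 (SD, n = 7) to 15.2 ± 3.12 (SD, n = 6). Lineage-negative marrow exceeded whole marrow by 1.84 ± 0.53 (log2 ± SE; limma adjusted p = 0.00486), a call lost with TMM scaling (1.19, limma adjusted p = 0.0642). AML differed from lineage-negative marrow by -0.92 ± 0.47 (limma adjusted p = 0.115) with all libraries and by -1.29 (limma adjusted p = 0.00360), a call, without AML replicate 6. From whole marrow it differed by 0.91 (limma adjusted p = 0.0929), by 0.55 without AML replicate 6, by 0.28 with TMM scaling (limma adjusted p = 0.676) and by 1.79 with the receptor level subtracted (limma adjusted p = 0.0103), where it was called.

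Eda2r (ENSMUSG00000034457, chromosome X from 96377446 to 96420822, minus strand), a receptor of the tumour necrosis factor receptor family, was near the detection limit. It passed the filter of 10 normalized counts in at least 4 samples through 5 libraries. AML replicates 1 to 7 had 1.27, 2.25, 1.23, 4.22, 4.72, 11.1 and 1.08, whole marrow 4.49, 4.02, 4.17 and 10.9, and lineage-negative marrow 9.08, 13.2, 14.98 and 21.5. AML replicates 1, 2, 3 and 7 lay under the value of 3 reads, which was 2.53 to 3.82 in AML libraries. The whole marrow values lay below the 11.2 to 21.2 that receptor genes would give at the exonic length of Eda2r, so Eda2r was not detectable above that level in whole marrow. AML was lower than lineage-negative marrow by a log2 difference of -1.97 ± 0.51 (limma adjusted p = 0.00330), and -2.25 without AML replicate 6. The filter was passed mainly through the lineage-negative group, so a gene as low in that group as in AML would not have been tested. From whole marrow AML differed by -0.74 (limma adjusted p = 0.207); the value was -1.02 and called without AML replicate 6 (limma adjusted p = 0.0436), -0.44 without whole marrow replicate 4, -1.30 and called with TMM scaling (limma adjusted p = 0.0462) and 0.86 with quantile scaling. Lineage-negative and whole marrow differed by 1.23 (limma adjusted p = 0.0661), a call without AML replicate 6 (1.23, limma adjusted p = 0.0270), which changes only the shared spread, or without whole marrow replicate 4 (1.53, limma adjusted p = 0.0485); it was 0.62 with TMM scaling.

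Trp53inp1 (ENSMUSG00000028211, chromosome 4 from 11156431 to 11174379, plus strand), a nuclear protein linked to apoptosis and autophagy, showed the largest difference of the 10 genes. AML libraries ranged from 1986 to 5489 normalized counts with a median of 3021. Whole marrow replicates 1 to 4 had 2146, 4897, 3929 and 4262, and lineage-negative replicates 1 to 4 had 441, 538, 602 and 533. Lineage-negative marrow was lowest by a wide gap, and AML and whole marrow overlapped over most of their range. AML exceeded lineage-negative marrow by 2.63 ± 0.28 (log2 ± SE; limma adjusted p = 2.13e-07), a 6.59-fold ratio of the means 3484 ± 1388 (SD, n = 7) and 528 ± 66.2 (SD, n = 4). Lineage-negative marrow lay below whole marrow (3809 ± 1179, n = 4) by -2.79 ± 0.31 (limma adjusted p = 5.91e-07), and by -3.49 with TMM scaling. AML differed from whole marrow by -0.17 ± 0.28 (limma adjusted p = 0.613), and by -0.86 with TMM scaling (limma adjusted p = 0.00925), which was not a call.

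Sesn2 (ENSMUSG00000028893, chromosome 4 from 132219343 to 132237812, minus strand), a sestrin that restrains the growth kinase complex mTORC1 when amino acids are short, was also lowest in lineage-negative marrow. AML libraries ranged from 428 to 770 with a median of 513, whole marrow had 251, 494, 492.6 and 486 in replicates 1 to 4, and lineage-negative marrow 270, 276, 192 and 214. All AML marrows lay above all lineage-negative marrows, and whole marrow replicate 1 lay among the latter. AML exceeded lineage-negative marrow by 1.23 ± 0.22 (log2 ± SE; limma adjusted p = 0.000147), a 2.37-fold ratio of the means 564 ± 133 (SD, n = 7) and 238 ± 41.5 (SD, n = 4). The controls differed by -0.82 (limma adjusted p = 0.00796), a call without whole marrow replicate 1 (-1.06, limma adjusted p = 0.000390) and with TMM scaling (-1.51, limma adjusted p = 3.59e-06). AML differed from whole marrow by 0.41 (limma adjusted p = 0.114), whose sign turned with TMM scaling (-0.29). Mature neutrophil markers, given above, were also lowest in lineage-negative marrow, and their part in the levels of Trp53inp1 and Sesn2 was not tested.

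**Figure D3:**
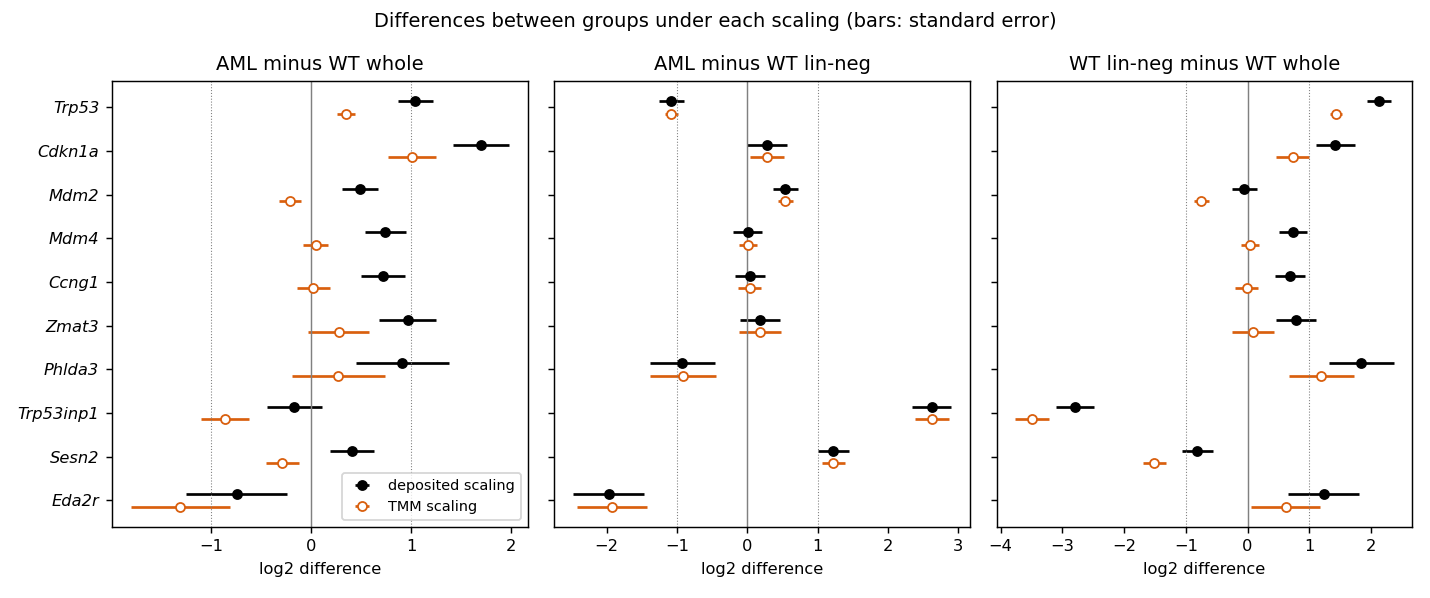
Log2 difference of p53 and its 9 targets in each of the 3 comparisons, with deposited scaling (filled) and TMM scaling (open); bars are standard errors and dotted lines mark a log2 difference of 1. Between AML and lineage-negative marrow the scalings coincide, with Trp53inp1 at 2.63 and Trp53 at -1.08, while against whole marrow TMM scaling shifts every gene to lower values.

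Levels can be compared between genes only per length. In AML, normalized counts per kilobase of exonic length were highest for Ccng1 (601 ± 137, SD) and Trp53inp1 (538 ± 214), then Mdm2 (328 ± 39.2), Trp53 (230 ± 21.7), Mdm4 (207 ± 29.99) and Sesn2 (162 ± 38.1). Cdkn1a followed at 69.8 ± 17.9, Phlda3 at 16.9 ± 19.1, Zmat3 at 13.7 ± 4.88 and Eda2r at 0.627 ± 0.609. In that order, the ranges over the 7 libraries did not overlap between Mdm2 (from 290) and Trp53 (to 266), between Sesn2 (from 123) and Cdkn1a (to 97.5) and between Zmat3 (from 8.17) and Eda2r (to 1.89), and those of the other neighbours overlapped. Whole marrow had Trp53inp1 (588 ± 182) and Ccng1 (368 ± 98.7) at the top per kilobase, and lineage-negative marrow had Ccng1 (581 ± 112) and Trp53 (488, from 456 to 563), with Trp53inp1 at 81.6 ± 10.2.

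The order of the AML mice differed between the genes. AML replicate 6 was the highest of the 7 for 5 genes (Ccng1, Zmat3, Phlda3, Trp53inp1 and Eda2r) and the lowest for Trp53 itself. AML replicate 1 was highest for Trp53, Mdm2 and Sesn2, AML replicate 4 for Cdkn1a and AML replicate 7 for Mdm4. AML replicate 5 was lowest for Cdkn1a, Zmat3 and Phlda3, and AML replicate 4 for Mdm4, Ccng1 and Trp53inp1. AML replicate 6 also had the highest receptor mean of the AML libraries, 3.81 normalized counts, which at the exonic length of Phlda3 would give at most 1.58 of its 93.8, at that of Zmat3 11.6 of its 237 and at that of Eda2r 5.97 of its 11.1.

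Genes with the most similar profile were ranked by the root mean square difference of centred log2 values over the 15 libraries, among 10075 protein-coding genes whose mean level was 100 normalized counts or more; the libraries share depth and scaling. For Trp53 they were Utp25 (0.121), Eif4b (0.126) and Wdr73 (0.131), where the spread of Trp53 itself was 0.808. For Cdkn1a they were Rps9 (0.264), Rex1bd (0.278) and Alg1 (0.296), against its own spread of 0.825. The distance between Cdkn1a and Trp53 was 0.666 and that between Mdm2 and Trp53 was 0.852, ranks 5475 and 7124 of those genes in distance from Trp53.

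Other p53 targets were counted in fixed lists, 37 of 39 of which passed the filter. AML had 10 higher and 3 lower than whole marrow, beside 27.3% and 11.3% of all genes, and 3 and 4 with TMM scaling, beside 4.74% and 16%. It had 9 higher and 5 lower than lineage-negative marrow, beside 17.7% and 12.5%. Between the controls, 12 were higher and 6 lower in lineage-negative marrow, beside 33.1% and 17.2%, and 3 and 9 with TMM scaling, beside 11.1% and 24.7%. The median log2 differences were 0.58, 0.09 and 0.64 in these 3 comparisons, beside 0.67, 0.02 and 0.59 over all genes.

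Of 12 apoptosis targets, 6 rose and 1 fell in AML against whole marrow (27.3% and 11.3% of all genes), which became 1 and 1 with TMM scaling (4.74% and 16%), and 4 rose and 3 fell against lineage-negative marrow (17.7% and 12.5%). Pmaip1, which encodes the BH3-only protein Noxa, had 300.3 to 1028 normalized counts in AML, above the 98.7 to 143 of whole and the 157 to 222 of lineage-negative marrow. It was higher by 2.08 ± 0.27 (log2 ± SE; limma adjusted p = 4.71e-06) and 1.42 ± 0.27 (limma adjusted p = 0.000204), and by 1.39 against whole marrow with TMM scaling. Bax, the pore-forming effector, was higher than in whole marrow by 1.502 (limma adjusted p = 2.89e-06), which was 0.81 and no call with TMM scaling. Fas, the death receptor, had 155 to 480 normalized counts in AML against 3.53 to 23.6 in lineage-negative marrow, the largest difference of these lists at 4.45 ± 0.42 (limma adjusted p = 4.43e-08). Fas was also higher in whole than in lineage-negative marrow, with a log2 difference of -3.88 (limma adjusted p = 1.35e-06) in lineage-negative against whole marrow. Aen, an apoptosis-enhancing nuclease, was lower in AML than in lineage-negative marrow by -1.19 ± 0.21 (limma adjusted p = 9.49e-05), and it was higher in lineage-negative than in whole marrow by 2.16, where Pidd1 was higher by 1.59 (0.90 and no call with TMM scaling) and Trp53i11 lower by -1.25.

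Perp, a membrane protein of desmosomes that p53 and p63 both control, had 138 normalized counts in AML replicate 6 and 6.47 to 24.2 in the other AML marrows, against 73.6 to 97.1 in whole and 23.6 to 112 in lineage-negative marrow. It was lower in AML than in whole marrow by -2.09 (limma adjusted p = 0.00356; -2.55 without AML replicate 6). The difference from lineage-negative marrow was -1.54 (limma adjusted p = 0.0322); it lost its call without AML replicate 2 (-1.46), 3 (-1.44), 5 (-1.49) or 7 (-1.30) and without lineage-negative replicate 2 (-1.39), 3 (-1.58) or 4 (-1.23), and reached -2.01 without AML replicate 6.

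Of 10 cell cycle and feedback targets tested, 0 rose and 1 fell in AML against whole marrow by limma, beside 27.3% and 11.3% of all genes. This became 0 and 2 with TMM scaling, beside 4.74% and 16%. With deposited scaling 2 were higher at an unadjusted p under 0.05 by limma, and limma-voom called 0 higher. Gadd45a, a growth-arrest gene, fell there by 1.52 ± 0.26 on the log2 scale (-1.52, limma adjusted p = 7.00e-05), from 929 to 1613 normalized counts in whole marrow to 307 to 801 in AML, and the difference was -2.22 with TMM scaling. It was lower in lineage-negative than in whole marrow by a like amount (-1.61, limma adjusted p = 8.70e-05). Against lineage-negative marrow 2 rose, beside 17.7% of all genes, the antiproliferative gene Btg2 (1.27 ± 0.21, limma adjusted p = 5.28e-05) and Ccng2, the cyclin G1 relative (1.24 ± 0.21, limma adjusted p = 7.74e-05). Btg2 was lower in lineage-negative than in whole marrow (-1.54, limma adjusted p = 1.59e-05).

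Of 15 repair and metabolism targets tested, 4 rose and 1 fell in AML against whole marrow (2 and 1 with TMM scaling), and 3 rose and 2 fell against lineage-negative marrow, where 17.7% and 12.5% of all genes did; the shares against whole marrow were 27.3% and 11.3%, and 4.74% and 16% with TMM scaling. Ddit4, an inhibitor of mTORC1, ranged from 179 to 2108 normalized counts among AML marrows against 61.9 to 202 in whole marrow, and was higher by 2.36 ± 0.56 (limma adjusted p = 0.00123). The difference was 1.67 with TMM scaling (limma adjusted p = 0.0302) and 1.68, no longer a call, with limma-voom (limma adjusted p = 0.115). Dcxr, a carbonyl reductase, was higher by 1.84 (limma adjusted p = 2.32e-06). Gls2, the mitochondrial glutaminase, had 1.23 to 17.7 normalized counts in AML against 55.5 to 71.1 in lineage-negative marrow, a log2 difference of -3.41 ± 0.48 (limma adjusted p = 8.13e-06), and -1.66 against whole marrow (limma adjusted p = 0.00528), which was -0.94 and no call with the receptor level subtracted. Gls2 passed the filter through all 4 marrows of each control group and 1 of 7 AML marrows. A gene as low in the controls as in AML would not have been tested. It was above the value of 3 reads in 3 of 7 AML marrows. Ephx1, an epoxide hydrolase, and Tnfrsf23, a decoy receptor for the ligand TRAIL, were higher in AML than in lineage-negative marrow by 2.43 ± 0.44 (limma adjusted p = 0.000128) and 2.41 ± 0.34 (limma adjusted p = 7.99e-06), and Ak1, an adenylate kinase, was lower by -1.82 (limma adjusted p = 0.000281). In lineage-negative against whole marrow Ephx1 and Tnfrsf23 were lower (-1.85 and -2.70), and Fdxr, ferredoxin reductase, and Ak1 were higher (2.03 and 1.75).

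Of 18 regulators and cofactors of p53 tested, 3 rose and 1 fell in AML against whole marrow (0 and 1 with TMM scaling), beside the shares of all genes just given, and 0 rose and 5 fell against lineage-negative marrow, beside 17.7% and 12.5% of all genes. The list median there was -0.72, beside 0.02 over all genes. By limma 2 of them were higher than in lineage-negative marrow at an unadjusted p under 0.05, and limma-voom called 0 higher. Lineage-negative marrow had 9 higher and 1 lower than whole marrow, beside 33.1% and 17.2% (4 and 1 with TMM scaling, beside 11.1% and 24.7%). The 1 gene lower than in whole marrow was Trp63 in both comparisons and with both scalings. As given below, Trp63 was tested only because whole marrow passed the filter, at values near the receptor level, so this count is no finding about the list. The DNA damage kinase gene Atm had 318 to 627.6 normalized counts in whole marrow, while AML had 1016 to 1419 and lineage-negative marrow 1867 to 2427, the same order as Trp53 and without overlap. Its log2 difference was 1.35 ± 0.18 in AML (limma adjusted p = 6.55e-06; 0.66 and no call with TMM scaling) and 2.19 in lineage-negative marrow (limma adjusted p = 8.64e-08), both against whole marrow. Chek1, a checkpoint kinase, was lower in AML than in lineage-negative marrow by -1.60 ± 0.28 (limma adjusted p = 8.78e-05). Ppp1r13l, an inhibitor of p53 of the ASPP family, was lower there by -1.63 (limma adjusted p = 0.00315); against whole marrow it was higher in AML by 1.18 (limma adjusted p = 0.0186), and in lineage-negative marrow by 2.80. The call of the former was lost without whole marrow replicate 1 (0.74), without AML replicates 5 and 6 (1.05), with TMM scaling (0.55, limma adjusted p = 0.275), with limma-voom (0.54), with a pseudocount of 5 (0.91) and with the replicate block (1.10).

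Trp63, the p53 relative of stratified epithelia, had 90.1 normalized counts in AML replicate 6 and 0 to 1.08 in the other 6 AML marrows, with 13.4 to 22.4 in whole and 0 to 0.653 in lineage-negative marrow. It passed the filter on low values only through the 4 whole marrows and AML replicate 6. A gene as low in whole marrow as in the other 6 AML marrows would not have been tested. Receptor genes at the exonic length of Trp63 would give 15.9 to 30.1 normalized counts in whole marrow and at most 8.50 in AML. The epithelial keratin genes Krt5, Krt14 and Krt15, looked up after these values were seen, lay at or under the value of 3 reads in all 7 AML libraries. Krt5 was above it in 1 of 4 whole marrows, Krt14 in 2 and Krt15 in 2. In lineage-negative marrow Krt14 was above it in 1 of 4 libraries, at 13.1 in replicate 4.

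Of 4 inhibitors of cyclin-dependent kinases tested beside p21, 0 were called between AML and whole marrow by limma and 3 were higher in AML than in lineage-negative marrow, where 17.7% of all genes were. Between AML and whole marrow 0 had an unadjusted p under 0.05, and limma-voom called 0. Cdkn2d, which encodes p19 of the INK4 family, was higher by 2.23 ± 0.25 (limma adjusted p = 5.22e-07) and was lower in lineage-negative than in whole marrow (-1.85, limma adjusted p = 1.56e-05). Cdkn1c, which encodes p57, was higher by 1.09 (limma adjusted p = 0.0356); the call was lost without AML replicate 3 (1.05), 4 (1.03) or 6 (0.96), without lineage-negative replicate 1 (0.85), 2 (1.05) or 4 (1.15), and with TMM scaling (1.08). Cdkn2a, whose Arf product inhibits Mdm2, did not pass the filter on low values, nor did Cdkn2b, Trp73, Rprm and Gdf15. Cdkn2a had 14.7 normalized counts in AML replicate 3 and 19.7 in AML replicate 6, was at or under the value of 3 reads in the other 13 libraries and was listed at 0 in all 4 whole marrows.

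Of 20 cell cycle genes of the pathway from p21 to the RB and E2F proteins, these proteins' genes included, 3 rose and 0 fell in AML against whole marrow. The shares of all genes were 27.3% and 11.3%. This became 1 and 6 with TMM scaling, beside 4.74% and 16%, so that the balance of directions depended on the scaling. With deposited scaling 3 were lower at an unadjusted p under 0.05 by limma, and limma-voom, which uses TMM factors, called 6 lower. Against lineage-negative marrow 2 rose and 4 fell, beside 17.7% and 12.5%. Cdk6, the kinase that with D cyclins phosphorylates RB, had 17754 to 23557 normalized counts in lineage-negative marrow, 3005 to 9053 in AML and 1604 to 3708 in whole marrow. It was lower in AML than in lineage-negative marrow by -2.07 ± 0.27 (limma adjusted p = 4.05e-06) and higher in lineage-negative than in whole marrow by 2.99. Ccne1, cyclin E1, was lower in AML by -1.30 (limma adjusted p = 0.000386), while E2f2 and Ccnd3, a transcription factor and a D cyclin, were higher by 2.11 (limma adjusted p = 8.53e-07) and 1.36 (limma adjusted p = 7.15e-05). Against whole marrow the D cyclins Ccnd1 (1.89, limma adjusted p = 0.000287; 1.19 with TMM scaling) and Ccnd2 (1.51, limma adjusted p = 0.000108; 0.82 and no call with TMM scaling) were higher in AML. In lineage-negative against whole marrow Ccnd2 was higher (2.45) and E2f2 lower (-2.73), and Rb1 was lower (-1.02), a call lost without whole marrow replicate 3 (-0.92) or 4 (-0.87) or lineage-negative replicate 1 (-0.90).

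**Figure D4:**
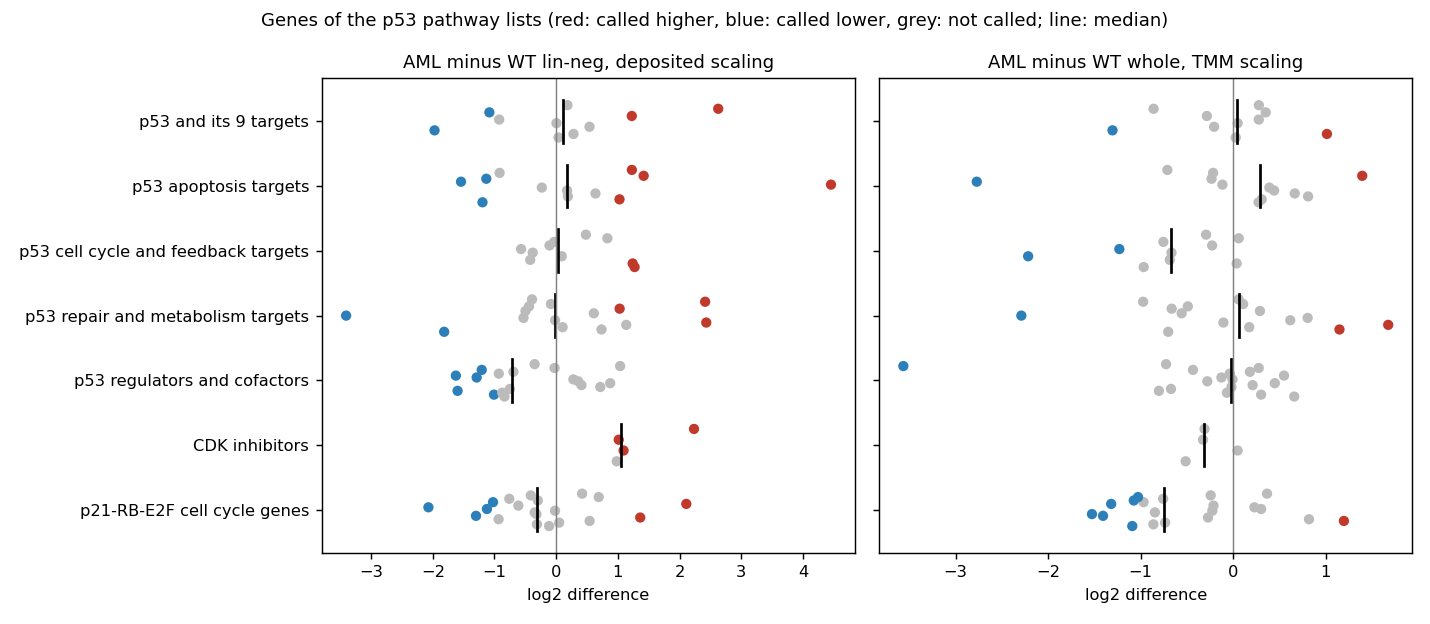
Log2 difference of each tested gene of the p53 lists, for AML minus lineage-negative marrow with deposited scaling and AML minus whole marrow with TMM scaling; 1 point per gene, coloured where called, with a line at the list median. In the first panel 5 of 18 regulators and cofactors are lower and 0 higher, where 12.5% and 17.7% of all genes are, and Fas is the point at 4.45.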

How the data were processed

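The deposited values have the unit signal: per the name of the table, the authors divided gene counts by DESeq2 poscounts size factors, 1 per library. The submitters' processing notes name Partek, STAR, DESeq2 and the build mm10, without versions, and per the labels' protocols the kit was TruSeq Stranded Total RNA; the strand setting of the counting is not given in the sources used here, so reads of overlapping or antisense genes cannot be told apart. Gene positions are given as the table lists them. Of 38066 gene identifiers shared with GENCODE M21 (GRCm38), 37557 had the same length and 861 the same start, so these positions were not joined to a genome; exonic lengths came from that annotation. Promoter windows came from RefSeq.

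Low values were whole multiples of the value of 1 read, within 0.02 of a step, for 82.2% to 87.1% of cases, so whole reads were not recovered and no count model was run. The step gave estimated depths and a floor of 3 reads, which covers counting error only. Genes with at least 10 normalized counts in at least 4 samples (18941) entered one limma fit of 3 group means on log2(value + 1), with limma 3.58.1 in R 4.3.3, a mean-variance trend, two-sided tests and Benjamini-Hochberg adjustment over all of them. Differences are on this scale, which understates the change of low genes. TMM factors were computed in R on estimated reads of the genes tested, that is, deposited values divided by the value of 1 read. Ratios were tested by exact permutation over 6 tests. The fit was also run on simulated data with a shared mean profile for all groups, apart from genes changed on purpose. These data lacked the receptor excess of whole marrow and the differences in composition, so the run cannot show their effect.

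The genes and the lists of other targets, regulators, CDK inhibitors, cell cycle genes and cell type markers were chosen with earlier results of these data known. From each list the text names, per comparison, at most 2 called genes from each end of the differences (highest and lowest), and for likeness the 3 nearest genes to Trp53 and Cdkn1a (those of Mdm2 are not reported here); Krt5, Krt14, Krt15 and the values of untested genes were added after the data were seen. Alternatives were pseudocounts of 0.1 and 5, no filter, a minimum mean of 50, scaling by TMM or quantiles, limma-voom on estimated reads, a replicate block, subtraction of the receptor level, leaving out each library, AML replicates 5 and 6 together, and, chosen after seeing the data, AML replicate 6 with whole marrow replicate 1.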

Additional observations from a re-analysis of the deposited data

Results flagged for a closer look

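Of 36 sets of values of 1 quantity in 1 group, 7 held a library whose gap to its nearest neighbour was larger than Dixon's critical value for a group of its size; chance gives about 1 in 20. Lineage-negative replicate 2 had the highest Trp53 level, 2276 normalized counts beside 1844 to 1906, and the lowest Zmat3 level, 73.1 beside 155 to 164. Whole marrow replicate 1 was lowest for Mdm2, at 748 beside 1325 to 1423, and for Sesn2, at 251 beside 486 to 494. AML replicate 6 was highest for Phlda3, at 93.8 beside 10.4 to 18.6, and for Eda2r, at 11.1 beside 1.08 to 4.72. Whole marrow replicate 4 was highest for Eda2r, at 10.9 beside 4.02 to 4.49, all below the receptor level scaled to that gene.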

How the results depend on the processing

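Of 771 recomputed differences of the 10 genes, 705 kept their direction and their side of the threshold, 27 became calls, 10 stopped being calls and 29 changed sign; none of the 29 was a call before. At this depth Eda2r lay under the value of 3 reads in 4 AML libraries. The cause of each change below was not tested unless a library was left out.

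With TMM, quantile and voom in turn, AML minus whole marrow became -0.21, -0.26 and -0.21 for Mdm2 and -0.29, -0.38 and -0.30 for Sesn2. Quantile scaling gave -0.0039 for Mdm4, -0.035 for Ccng1 and 0.86 for Eda2r there, and -0.16 for Mdm4 and -0.094 for Ccng1 in AML minus lineage-negative marrow. Ccng1 in lineage-negative minus whole marrow was -0.012 with TMM and -0.013 with voom. The replicate block turned Mdm4 (-0.10) and Ccng1 (-0.14) in AML minus lineage-negative marrow. Without AML replicates 5 and 6 these were -0.012 and -0.11, and Ccng1 was -0.046 without AML replicate 6 and whole marrow replicate 1. Leaving out 1 library gave ranges of -0.092 to 0.084 for Mdm4, -0.10 to 0.14 for Ccng1 and -0.097 to 0.29 for Zmat3 in AML minus lineage-negative marrow, and -0.27 to 0.038 for Mdm2 in lineage-negative minus whole marrow.

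Of the 10 genes, AML against whole marrow had 1 called higher with TMM, with voom and without AML replicate 6 and whole marrow replicate 1, and 4 with the receptor level subtracted. It had 1 called lower with TMM, with the replicate block and without AML replicates 5 and 6. AML against lineage-negative marrow had 1 called lower with a mean of at least 50 and with the receptor level subtracted. Lineage-negative against whole marrow had 1 called higher with TMM and voom, and 2 called lower with TMM, quantile and voom and without AML replicate 6 and whole marrow replicate 1. Leaving out 1 library gave 1 to 3 higher and 0 to 1 lower, 2 to 2 and 2 to 3, and 3 to 4 and 1 to 2 in the 3 comparisons.

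Over all genes, AML against whole marrow had 897 higher with TMM, 2474 with quantile, 757 with voom and 3438 without AML replicate 6 and whole marrow replicate 1, and 11289 lower without a filter, 460 with a mean of at least 50, 690 with the receptor level subtracted and 1170 without those libraries. AML against lineage-negative marrow had 2225 higher with a mean of at least 50. Lineage-negative against whole marrow had 2098, 4133 and 2080 higher with TMM, quantile and voom, and 12497, 1244 and 1648 lower with no filter, a mean of at least 50 and the receptor level subtracted. Leaving out 1 library gave 3165 to 5832 higher and 1237 to 2128 lower in AML against whole marrow, where whole marrow replicate 1 gave the lowest count of higher genes. With TMM, calls became fewer higher and more lower against whole marrow.

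Without AML replicate 6 and whole marrow replicate 1, the adjusted p of 3 ratio differences missed the threshold: Mdm2 to Mdm4 in AML minus lineage-negative marrow (0.50) and in lineage-negative minus whole marrow (-0.76), and Cdkn1a to Trp53 in AML minus whole marrow (0.54). Cdkn1a to Trp53 in lineage-negative minus whole marrow passed it with a pseudocount of 5 (-0.75). Leaving out 1 library gave 0.41 to 0.66 and -0.92 to -0.66 for Mdm2 to Mdm4, and 0.57 to 0.76, 1.18 to 1.59 and -0.93 to -0.53 for Cdkn1a to Trp53. Whether control samples of the same number came from the same mouse is not given. The correlation of same-numbered deviations was -0.29 to 0.081 for AML and whole, -0.0026 to 0.11 for AML and lineage-negative and -0.013 to 0.17 for whole and lineage-negative marrow. In each pair of groups 1 sample of 4 matched its own number best. Such correlations between different cell fractions cannot show whether samples shared a mouse. The block moved no count of all genes by over 1.5 times.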

Other observations

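Targets that did not pass the filter on low values were near the detection limit. Gdf15, a stress cytokine of the TGF-beta family, had 0.845 to 8.64 normalized counts in AML, 5.22 to 12.1 in whole marrow and 2.64 to 6.53 in lineage-negative marrow. Trp73, the other p53 relative, was above the value of 3 reads in 3 of 7 AML, 2 of 4 whole and 0 of 4 lineage-negative marrows, with 17.2 as its highest AML value. Cdkn2b, which encodes the INK4 inhibitor p15, was above it in 3 of 7 AML marrows, with 14.7 in AML replicate 3, 11.1 in AML replicate 6 and 5.39 in AML replicate 7, and in 1 of 4 whole marrows. Cdkn2a and Cdkn2b, neighbouring genes, thus both had their 2 highest values in AML replicates 3 and 6.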
